A study of Mus musculus with 26 samples.

Results

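RNA 5-hydroxymethylcytosine (5hmC) peaks of mouse embryonic stem cells (ESCs) with a tagged Tet2 were set against those of ESCs whose tagged Tet2 lacked its RNA-binding domain (RBD). Members were all peaks of the immunoprecipitated samples that the labels place in the groups Tet2-KI and Tet2deltaRBD-KI, 2 replicates each, which are 4 of the 13 immunoprecipitated samples and hold 24121 of the 56538 peaks of the series. Intervals that overlapped by 1 bp or more were merged into 15341 regions, beside 23367 regions over all 13 samples. A region with a peak in both Tet2-KI samples and in neither Tet2deltaRBD-KI sample is called Tet2-KI-specific here (1080 regions, 7.04% of all regions), the reverse Tet2deltaRBD-KI-specific (217 regions, 1.41%), and a region with a peak in every sample common (863 regions, 5.63%). These class sizes follow from the definitions, and carry no test.

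Both groups carried a Flag, HA and Twin-Strep tag at the C-terminus of Tet2, placed at the endogenous locus with the CRISPR enzyme Cas9n, per the labels, and both kept the wild-type Tet1 and Tet3 genes. The donor template held the RBD, a stretch beside the C-terminal catalytic domain, in Tet2-KI and left it out in Tet2deltaRBD-KI. By the labels, cells that took up the editing vector were sorted by GFP and grown as picked clones. The study describes its hMeRIP-Seq experiments as independent and done in triplicate. The labels list 2 replicates in each knock-in group, which are those used here, and do not say whether these are separate clones or cultures, so p-values measure only the spread between these samples, which may be technical. All were grown undifferentiated on gelatin with serum and leukaemia inhibitory factor. DNase-treated total RNA was fragmented and precipitated with an anti-5hmC antibody, and peaks were called over each sample's own input (hMeRIP-Seq). The other immunoprecipitated samples, used here only as a readout, were 3 replicates each of wild-type ESCs (WT ESC), of ESCs without Tet1, Tet2 and Tet3 (TKO ESC), and of wild-type embryoid bodies formed without leukaemia inhibitory factor (WT EB).

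Tet enzymes oxidise 5-methylcytosine to 5hmC, in DNA and also in RNA. Tet2 has no CXXC domain, the part with which Tet1 and Tet3 can bind CpG-rich DNA, and reaches its targets through partner proteins and through RNA. In ESCs Tet1 and Tet2 are the abundant members of the family. The comparison asks which 5hmC peaks are found with and without the RNA-binding part of Tet2.

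The deposited knock-in lists hold positions only, as intervals of 200 bp around a summit, with no fold enrichment and no read counts, so the depth behind each list is unknown. A region without a peak is therefore a region where no peak passed the authors' threshold, not one shown to lack 5hmC. In bulk RNA, a missing peak also cannot be told apart from less of the transcript, or from fewer cells that make it. With 2 samples against 2, the 6 relabellings allow no two-sided exact permutation p below 0.333, so no comparison between the groups could pass 0.05. Tet2deltaRBD-KI replicate 2 stood apart: 54.6% of its peaks had a GC content of 60% or more, against 11.8% and 16.3% in Tet2-KI and 21.8% in Tet2deltaRBD-KI replicate 1, and 2.85 to 25.3% in the other 9 lists. Shares over the classes, and some of those within a GC class, are also given without it, and the classes are described within 4 GC classes of the interval (under 40%, 40 to 50%, 50 to 60%, and 60% and over).

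Sequences of 8 regions show what the 3 classes look like, as 200 bases from mm9 on the transcript strand, 5′ to 3′. Rnf20 and Pnn are given for the Tet2-KI-specific regions, whose median GC content was the lowest of the 3 classes, and capitals mark runs of at least 8 purines.
Rnf20, intron into exon, chr4:49665290-49665489, plus strand: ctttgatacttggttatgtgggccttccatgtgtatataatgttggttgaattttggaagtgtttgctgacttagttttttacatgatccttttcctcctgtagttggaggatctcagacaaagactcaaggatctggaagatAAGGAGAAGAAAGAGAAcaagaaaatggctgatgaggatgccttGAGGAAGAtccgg
Pnn, exon, intron and the next exon, chr12:60171207-60171406, plus strand: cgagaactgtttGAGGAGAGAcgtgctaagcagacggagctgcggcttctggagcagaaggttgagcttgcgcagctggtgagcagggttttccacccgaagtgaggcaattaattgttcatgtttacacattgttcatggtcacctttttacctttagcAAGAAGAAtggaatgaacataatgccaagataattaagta
Aebp2, Nsd1 and Ash2l are given for the Tet2deltaRBD-KI-specific regions, most of which were GC-rich, and capitals mark CG. They were taken from the named regions and gene lists as intervals of 60% GC and over without UTR sequence. They do not stand for a group of genes. The part named for each is that of the summit, and the interval can run past it.
Aebp2, coding sequence, chr6:140572561-140572760, plus strand: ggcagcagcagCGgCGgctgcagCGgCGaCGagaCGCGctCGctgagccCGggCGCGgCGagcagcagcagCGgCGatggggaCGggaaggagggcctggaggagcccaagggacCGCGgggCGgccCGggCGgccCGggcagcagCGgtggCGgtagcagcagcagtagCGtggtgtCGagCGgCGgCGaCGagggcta
Nsd1, first intron, chr13:55312496-55312695, plus strand: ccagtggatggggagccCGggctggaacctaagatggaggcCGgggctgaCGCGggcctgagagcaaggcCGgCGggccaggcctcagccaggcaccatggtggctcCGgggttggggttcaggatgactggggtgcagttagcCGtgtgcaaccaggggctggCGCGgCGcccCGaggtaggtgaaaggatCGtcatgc
Ash2l, coding sequence, chr8:26951007-26951206, minus strand: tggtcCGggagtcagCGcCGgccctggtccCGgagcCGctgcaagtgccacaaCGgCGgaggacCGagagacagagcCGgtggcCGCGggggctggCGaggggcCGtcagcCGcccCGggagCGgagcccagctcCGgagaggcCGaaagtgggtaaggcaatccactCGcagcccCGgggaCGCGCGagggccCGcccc
Dyrk1a, Calm2 and Nedd4 are given for the common regions. Capitals mark the stretch that returns at the distance found by the search, 26 nt in Dyrk1a and 52 nt in Calm2, where the marked stretch itself holds a shorter unit more than once, and CG in Nedd4.
Dyrk1a, intron, chr16:94851574-94851773, plus strand: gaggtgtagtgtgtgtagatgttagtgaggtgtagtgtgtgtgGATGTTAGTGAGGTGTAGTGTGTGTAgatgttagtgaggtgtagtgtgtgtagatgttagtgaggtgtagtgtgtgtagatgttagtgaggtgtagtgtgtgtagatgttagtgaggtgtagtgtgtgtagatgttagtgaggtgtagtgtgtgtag
Calm2, intron, chr17:87837185-87837384, minus strand: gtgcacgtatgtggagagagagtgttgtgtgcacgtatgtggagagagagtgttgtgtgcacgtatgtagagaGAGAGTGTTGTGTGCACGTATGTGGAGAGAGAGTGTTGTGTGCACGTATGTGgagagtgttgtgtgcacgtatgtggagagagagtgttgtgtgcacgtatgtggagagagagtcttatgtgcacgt
Nedd4, first intron, chr9:72510556-72510755, plus strand: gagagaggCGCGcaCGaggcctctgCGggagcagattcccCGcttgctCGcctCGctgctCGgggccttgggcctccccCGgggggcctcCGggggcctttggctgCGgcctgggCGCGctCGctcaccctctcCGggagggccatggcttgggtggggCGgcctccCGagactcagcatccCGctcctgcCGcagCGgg

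Tet2-KI replicates had 10383 and 5781 peaks, and Tet2deltaRBD-KI replicates 4639 and 3318. Both Tet2-KI lists were longer than both Tet2deltaRBD-KI lists, although the Tet2-KI replicates differed more from each other than the shorter of them did from Tet2deltaRBD-KI replicate 1. On the log2 scale the means were 12.92 ± 0.60 and 11.94 ± 0.34 (SD, n = 2 each), a difference of 0.98 (exact permutation p = 0.333, the smallest possible). Leaving out 1 sample in turn gave differences of 0.56 to 1.40.

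The mean GC content of the peaks was 48.1% and 49.3% in Tet2-KI and 51.2% and 60.8% in Tet2deltaRBD-KI. The groups did not overlap, and the difference was -7.33 percentage points (exact permutation p = 0.333). It was -2.50 without Tet2deltaRBD-KI replicate 2. At the other end, peaks with a GC content under 40% made up 16.2% and 15.5% of the Tet2-KI lists, 12.9% of Tet2deltaRBD-KI replicate 1 and 5.03% of replicate 2. The Tet2deltaRBD-KI replicates differed from each other by more than replicate 1 differed from either Tet2-KI sample.

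**Figure D1:**
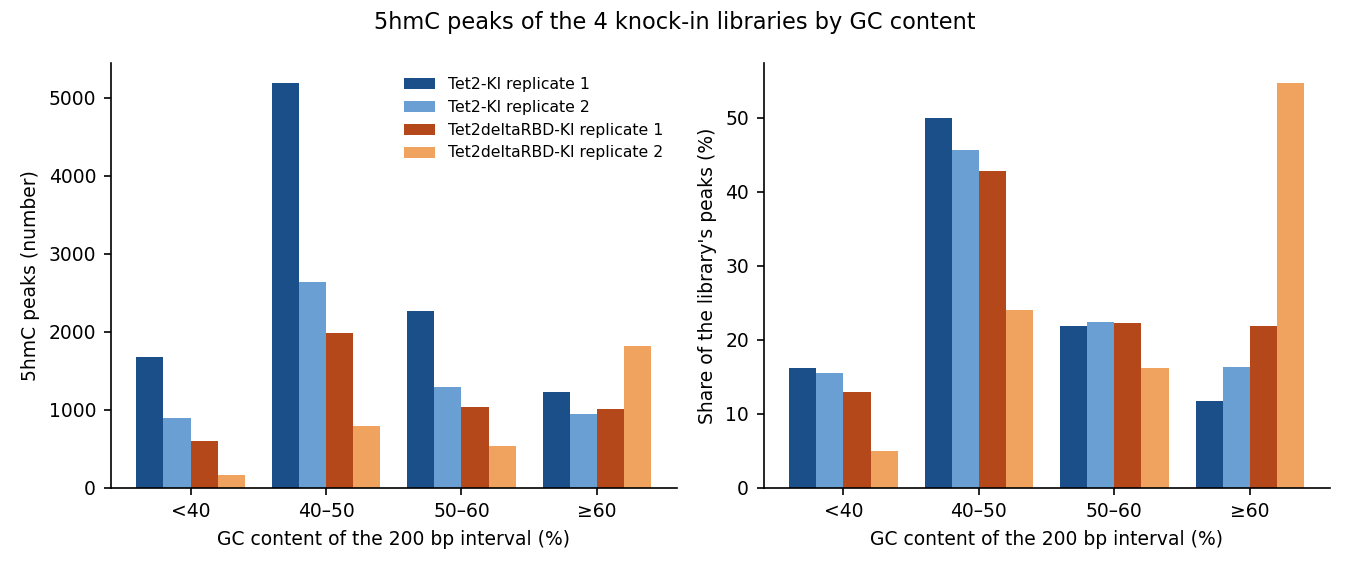
Number of peaks (left) and share of each sample's peaks in percent (right) by GC class of the 200 bp interval, for the 4 knock-in samples. Tet2deltaRBD-KI replicate 2 has 54.6% of its peaks in the class of 60% and over, and the other samples have 11.8 to 21.8%.

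Peaks in 5′ UTRs, the leader upstream of the start codon, made up 2.94% and 4.34% of the Tet2-KI lists and 5.80% and 15.9% of the Tet2deltaRBD-KI lists (exact permutation p = 0.333). Intronic peaks were the largest part in every sample, with 56.1% and 62.4% in Tet2-KI and 60.3% and 45.3% in Tet2deltaRBD-KI (exact permutation p = 0.667). Of the peaks in protein-coding genes, 31.1% and 30.6% were exonic in Tet2-KI, and 30.9% and 50.5% in Tet2deltaRBD-KI. Replicate 1 of Tet2deltaRBD-KI lay between the Tet2-KI samples, and only its replicate 2 stood above them. After all samples were weighted to the same GC classes, the exonic shares were 34.2% and 32.6% in Tet2-KI and 30.6% and 34.3% in Tet2deltaRBD-KI. The groups then overlapped, with a difference of 0.945 percentage points (exact permutation p = 1), against -9.88 before weighting (exact permutation p = 0.667). The weighted difference also changed sign to -0.884 without Tet2deltaRBD-KI replicate 1 and to -0.413 without Tet2-KI replicate 1.

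Of the 15341 regions, 10430 (68.0%) had a peak in a single sample, 2663 in 2 samples, 1385 in 3 and 863 in all 4. Tet2-KI replicate 1, the longest list, held 5885 of the regions found once, and Tet2deltaRBD-KI replicate 2 held 1368, with a median GC content of 71.5% against 46.5 to 49.0% for the regions found once in the other samples. Of the regions in 2 samples, 1080 were in the Tet2-KI pair and 217 in the Tet2deltaRBD-KI pair, and 122 to 760 in the pairs with 1 sample of each group, the most in replicate 1 of both. Among regions with peaks in 3 samples, 944 were without a peak only in Tet2deltaRBD-KI replicate 2, against 137 to 157 for each of the other samples. The class called Tet2-KI-specific thus depended on which Tet2deltaRBD-KI sample was used. It held 1221 regions without replicate 2 and 2026 without replicate 1. Tet2deltaRBD-KI-specific regions were 217 with both replicates, 1386 without replicate 2 and 1592 without replicate 1.

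Tet2-KI-specific regions had a median GC content of 46.3%, common regions 49.1% and Tet2deltaRBD-KI-specific regions 72.8%. By rising GC class, the 1078 Tet2-KI-specific regions on the reference fell into 203, 577, 209 and 89, which are 9.43%, 8.46%, 6.50% and 2.85% of all regions of each class. The Tet2deltaRBD-KI-specific regions fell into 4, 24, 16 and 173, or 0.186%, 0.352%, 0.498% and 5.54% of all regions of each class, so that 79.7% of them had a GC content of 60% or more. Common regions were spread more evenly, with 68, 391, 182 and 217 regions, or 3.16%, 5.74%, 5.66% and 6.95%. Without Tet2deltaRBD-KI replicate 2, the regions found only in Tet2deltaRBD-KI replicate 1 had a median GC content of 51.0%, and 30.2% of them reached 60%, against 46.5% and 10.3% for the regions of both Tet2-KI samples alone. The order of the classes by GC content stayed, with a narrower gap.

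**Figure D2:**
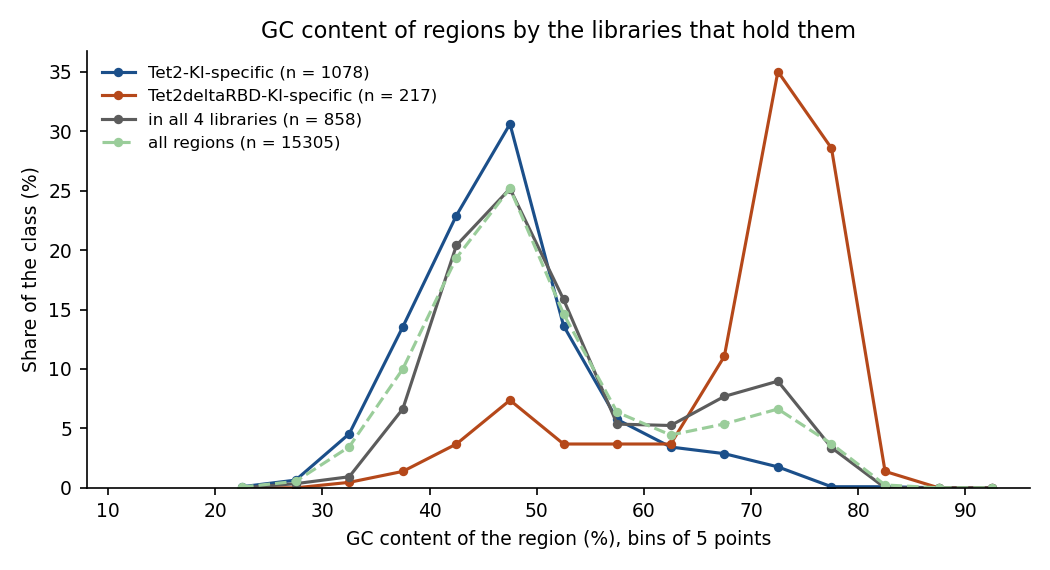
GC content of the interval in percent (horizontal, bins of 5 points) against the share of each class in percent (vertical), for 1078 Tet2-KI-specific, 217 Tet2deltaRBD-KI-specific, 858 common and 15305 regions in all. Tet2deltaRBD-KI-specific regions peak above 70%, and the other lines peak between 40 and 50%.

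Among the 3024 regions with a peak in both Tet2-KI samples, 35.7% had none in either Tet2deltaRBD-KI sample. By rising GC class this share was 43.0% (95% Clopper-Pearson interval 38.5 to 47.6, n = 472), 37.8% (35.3 to 40.3, n = 1527), 34.2% (30.4 to 38.1, n = 612) and 22.0% (18.1 to 26.4, n = 404). The intervals cover counting error only, not the spread between samples. The trend was steep in Tet2deltaRBD-KI replicate 2, which had a peak in 15.9%, 29.9%, 34.2% and 62.9% of these regions, and shallow in replicate 1, with 55.5%, 57.9%, 61.4% and 68.8%. Without replicate 2 the share with no peak was 44.7%, 42.2%, 38.4% and 31.3%, and without replicate 1 it was 84.5%, 69.7%, 66.5% and 37.2%. In each case it was highest under 40% GC and lowest at 60% and over.

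In the other direction, of the regions with a peak in both Tet2deltaRBD-KI samples, 4.44% (n = 90), 4.73% (n = 507), 6.58% (n = 243) and 32.1% (28.2 to 36.2, n = 539) had none in either Tet2-KI sample, by rising GC class. Below 60% GC, then, few regions replicated in Tet2deltaRBD-KI were without a Tet2-KI peak, and at 60% and over the 2 Tet2-KI samples had a peak in 55.7% and 52.5% of them. Without Tet2deltaRBD-KI replicate 2, regions of replicate 1 without a Tet2-KI peak were 24.6%, 25.0%, 33.6% and 42.7%. These samples differ in the length and GC content of their lists, and the part of either in these shares was not tested.

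**Figure D3:**
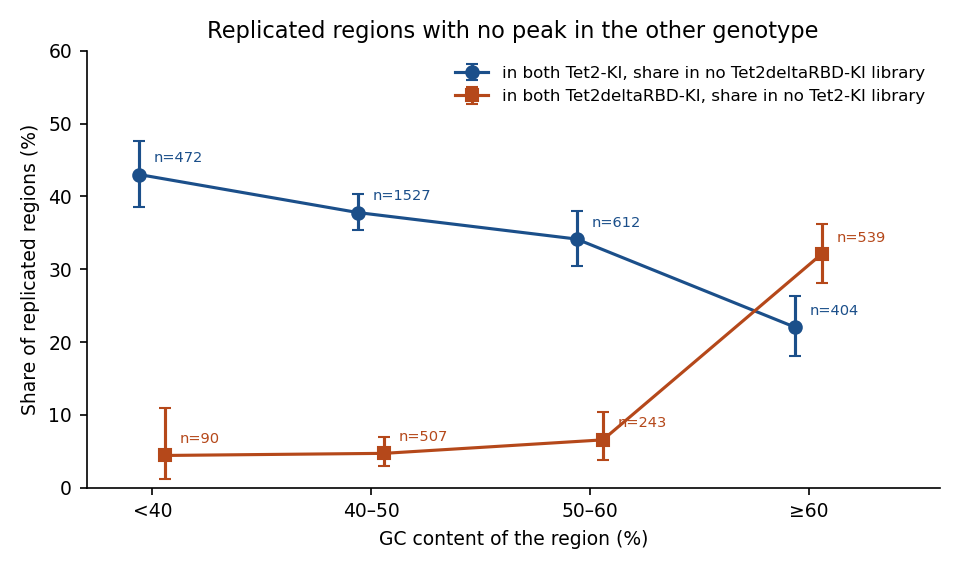
Share in percent (vertical) of regions of both Tet2-KI samples without a Tet2deltaRBD-KI peak, and of regions of both Tet2deltaRBD-KI samples without a Tet2-KI peak, by GC class (horizontal). Points are shares over regions and bars are 95% Clopper-Pearson intervals, and the shares go from 43.0 to 22.0% in the first case and from 4.44 to 32.1% in the second.

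In protein-coding genes, 29.9% of Tet2-KI-specific regions were exonic (27.0 to 32.9), 63.8% of Tet2deltaRBD-KI-specific regions (56.7 to 70.5) and 37.8% of common regions (34.4 to 41.3). The classes lay closer within GC classes. At 60% GC and over the exonic shares were 63.6% (52.7 to 73.6, n = 88), 73.6% (66.2 to 80.2, n = 163) and 65.0% (58.0 to 71.6, n = 203), with overlapping intervals. Below 60% they were 26.5% (n = 872), 19.4% (7 of 36 regions) and 28.1% (n = 572), beside 23.5% of all regions. Without Tet2deltaRBD-KI replicate 2 the exonic shares were 29.6% for Tet2-KI-specific and 32.4% for Tet2deltaRBD-KI-specific regions.

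The transcript parts differed most in introns and in the leader. Of all regions of the class, 5′ UTRs held 2.3% of Tet2-KI-specific, 27.2% of Tet2deltaRBD-KI-specific and 6.1% of common regions. At 60% GC and over the shares were 22.5%, 34.1% and 21.7%, beside 24.7% of all regions with that GC content. Coding sequence held 20.5%, 28.6% and 23.2% of the 3 classes, and introns 62.3%, 33.2% and 55.9%. The median distance from the start of the gene was 21891 bp for Tet2-KI-specific, 484 bp for Tet2deltaRBD-KI-specific and 14742 bp for common regions. Within 500 bp of the start lay 4.58%, 52.8% and 13.7%, and at 60% GC and over 45.5%, 64.4% and 49.8%. Without Tet2deltaRBD-KI replicate 2 the shares near the start were 5.67% for Tet2-KI-specific and 17.8% for Tet2deltaRBD-KI-specific regions. The 5′ UTR shares were then 2.54% and 8.44%, and 4.09% of regions in all remaining samples, and introns held 63.1%, 58.7% and 58.9%. The order in coding sequence turned, with 14.6% of Tet2deltaRBD-KI-specific and a larger share of Tet2-KI-specific regions.

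Intronic regions followed the same order: the first intron held 32.8% of intronic Tet2-KI-specific, 72.2% of Tet2deltaRBD-KI-specific and 42.3% of common regions. At 60% GC and over these were 59.4%, 93.0% and 80.3%. The median number of CG dinucleotides in an interval was 2, 23 and 2, and at 60% GC and over it was 14, 24 and 20. The first intron held 33.8%, 47.2% and 38.7% without Tet2deltaRBD-KI replicate 2, and the median number of CG was then 2 in every class.

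**Figure D4:**
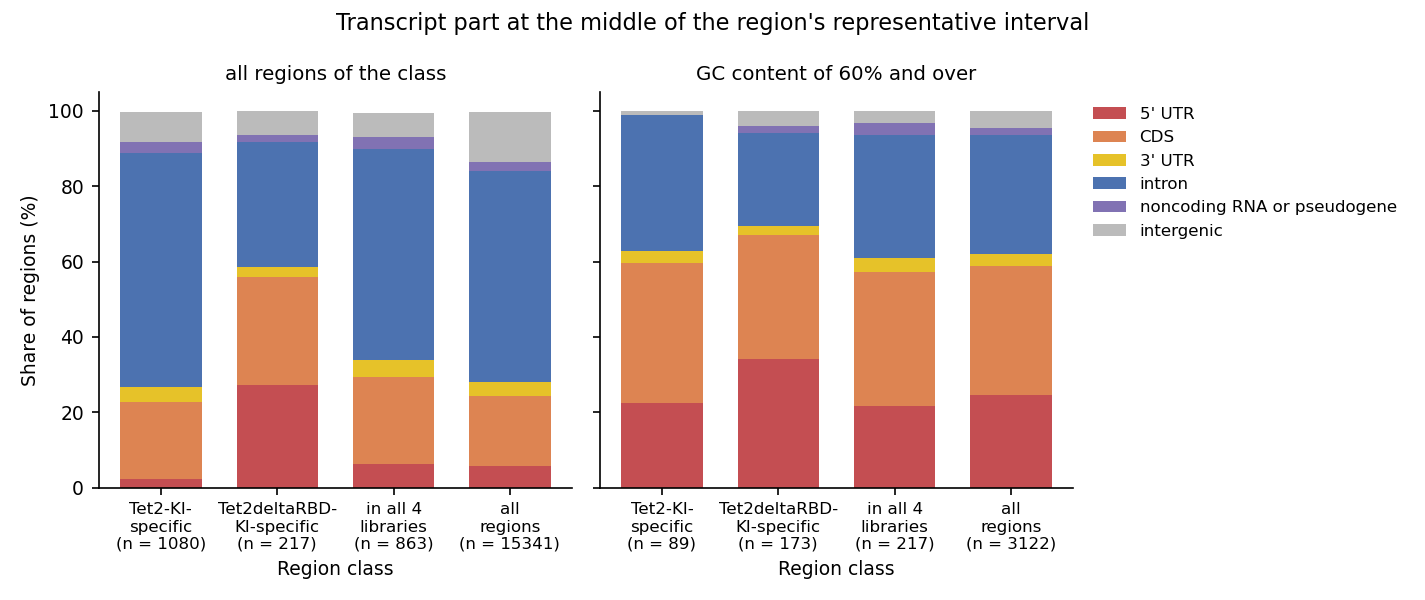
Share in percent of each class by transcript part (stacked bars that start at 0), for regions of any GC content and for those of 60% GC and over. The 5′ UTR takes 2.3% of Tet2-KI-specific and 27.2% of Tet2deltaRBD-KI-specific regions in the first panel, and 22.5% and 34.1% in the second.

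Hexamers were searched on the transcript strand of regions in coding genes, a choice made after the sequences were seen, and each match describes letters only. GAAGAA stood in 25.8% of Tet2-KI-specific, 4.02% of Tet2deltaRBD-KI-specific and 19.9% of common regions, beside 18.8% of all regions. Its reverse complement TTCTTC stood in 3.85%, 2.51% and 2.71%, beside 4.58%, so the purine hexamer was the more frequent on the transcript strand. At 40 to 50% GC, GAAGAA was in 28.4% of 496 Tet2-KI-specific and 29.0% of 352 common regions, which hardly differed there. Tet2deltaRBD-KI-specific regions were too few there to be read, with 5.26% of 19. Under 40% GC they had it in 66.7% of 3, against 32.5% of Tet2-KI-specific regions. At 50 to 60% GC, GAAGAA was in 20.5% of Tet2-KI-specific and 13.4% of common regions. At 60% and over it was in 7.95% of Tet2-KI-specific, 2.45% of 163 Tet2deltaRBD-KI-specific and 5.42% of common regions, beside 6.33% of all such regions. GGCGGC stood in 4.48%, 38.2% and 12.5% of the classes (10.3% of all regions) and its reverse complement GCCGCC in 3.33%, 30.2% and 6.84% (6.94%). At 60% GC and over, GGCGGC was in 34.1%, 46.6% and 46.3%, beside 41.2% of all such regions. GCCGCC was there in 27.3%, 36.8% and 25.1%, beside 27.9% of all such regions. Tet2deltaRBD-KI-specific regions were then near common regions in GGCGGC and above them in GCCGCC. Over all GC classes but without Tet2deltaRBD-KI replicate 2, GAAGAA was in 24.6%, 12.8% and 22.9%, GGCGGC in 4.94%, 14.1% and 7.86%, and GCCGCC in 3.57%, 11.0% and 3.99%. The order of Tet2-KI-specific and Tet2deltaRBD-KI-specific regions stayed for each of these hexamers, with a narrower gap.

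Tandem repeats were runs of at least 18 nt of a unit of 1 to 4 nt, or of 20 nt for units of 4 nt. They were in 5.74% of Tet2-KI-specific, 1.84% of Tet2deltaRBD-KI-specific and 3.59% of common regions, below the 10.9% of all regions. Below 60% GC the shares were 6.17%, 6.82% (3 of 44) and 4.84%, beside 13.3% of all such regions. At 60% and over, 1.47% of all regions held one. Without Tet2-KI replicate 2, tandem repeats were in 17.2%, 3.01% and 3.92% of the classes. By sample, 14.0% and 4.46% of Tet2-KI peaks and 7.24% and 3.59% of Tet2deltaRBD-KI peaks held one (exact permutation p = 0.667), and Tet2-KI replicate 1 was the highest. The difference of 3.79 percentage points turned to -0.952 without that sample. Longer repeats, in which a stretch returns at a distance of 5 to 60 nt, searched after the sequences of common regions were seen, were in 3.61%, 4.15% and 8.69% of the classes and 4.21% of all regions. Below 60% GC they were in 34 of 989 Tet2-KI-specific regions (3.44%), 8 of 44 Tet2deltaRBD-KI-specific regions (18.2%) and 10.8% of common regions, beside 4.83% of all regions. When Tet2deltaRBD-KI replicate 2 was left out, tandem repeats were in 5.81%, 7.07% and 5.64% of the classes, so Tet2deltaRBD-KI-specific regions no longer had the lowest share, and longer repeats were in 4.01%, 5.12% and 6.08%. The Dyrk1a and Calm2 sequences above are examples.

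WT ESC peaks, which the definition of the classes did not use, covered the classes unequally. Of Tet2-KI-specific regions 50.7% (47.7 to 53.8) had a peak in at least 1 WT ESC replicate, of Tet2deltaRBD-KI-specific regions 25.8% (20.1 to 32.2) and of common regions 82.4% (79.7 to 84.9), beside 39.1% of all regions. In replicates 1, 2 and 3 the shares were 18.3%, 35.7% and 30.5% for Tet2-KI-specific, 12.0%, 8.8% and 16.6% for Tet2deltaRBD-KI-specific and 60.7%, 66.6% and 65.2% for common regions. With all 4 knock-in samples the order of the classes was the same in each WT ESC replicate, and replicate 1, whose description opens with another number than those of replicates 2 and 3, had the smallest gap between the first and second class. At 60% GC and over the shares with any WT ESC peak were 32.6%, 23.7% and 65.0%, beside 23.7% of all such regions. Without Tet2deltaRBD-KI replicate 2 they were 51.4% and 20.4% over all GC classes, for Tet2-KI-specific and Tet2deltaRBD-KI-specific regions. Without Tet2-KI replicate 1 they were 27.6% and 40.1%, so the order of the 2 specific classes depended on that sample. In the class of 60% GC and over the shares were 38.1% and 17.7% without Tet2deltaRBD-KI replicate 2, 14.5% and 34.0% without Tet2-KI replicate 1, and 25.9% and 26.7% without Tet2-KI replicate 2. Leaving out Tet2deltaRBD-KI replicate 1 gave 15.2% for Tet2deltaRBD-KI-specific regions there, below the share of Tet2-KI-specific regions. Common regions had the highest share whichever sample was left out, at 75.9% or more over all GC classes and 58.0 to 63.2% at 60% GC and over.

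Where such a region had a WT ESC peak, its median fold enrichment over input was read in the 3 replicates. It was 6.69, 6.56 and 6.50 for Tet2-KI-specific, 5.53, 4.96 and 4.48 for Tet2deltaRBD-KI-specific and 7.10, 7.88 and 7.76 for common regions. At 60% GC and over the medians were 5.30, 4.66 and 5.22, then 5.09, 4.53 and 3.97, then 5.71, 5.51 and 5.03. In the specific classes these rest on 9 to 26 regions each. All regions of that GC content had 5.54, 5.03 and 4.93, and the classes lay closer there. TKO ESC, which have no Tet enzyme, had a peak in at least 1 replicate in 38.2%, 9.2% and 63.7% of the classes, beside 24.2% of all regions. WT EB had one in 27.9%, 4.1% and 47.4%, beside 16.6%. Among regions of 60% GC and over the TKO ESC shares were 16.9%, 8.1% and, for common regions, 76 of 217, beside 9.83% of all such regions, and the WT EB shares 6.74%, 3.47% and 24.4%, beside 6.57%. Without Tet2-KI replicate 1 the TKO ESC shares of Tet2-KI-specific and Tet2deltaRBD-KI-specific regions were 20.1% and 19.8% over all GC classes, and without Tet2deltaRBD-KI replicate 2 they were 38.4% and 8.51%. The WT EB shares were 14.5% and 9.09%, and 27.2% and 5.12%, in the same cases. Of the regions with a peak in all 3 WT ESC replicates, none of the TKO ESC replicates had a peak in 23 of 89 Tet2-KI-specific regions (25.8%, 17.1 to 36.2), in 2 of 4 Tet2deltaRBD-KI-specific regions and in 41 of 394 common regions (10.4%), beside 292 of 865 regions outside the 3 classes (33.8%, 30.6 to 37.0) and 358 of 1352 over all regions (26.5%). The interval of Tet2-KI-specific regions overlaps that of the regions outside the classes and lies above the value of common regions.

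The 1545 regions with a peak in all 3 WT ESC replicates, defined without the knock-in samples, give a set in which each knock-in sample can be read. A peak was found in 83.7% and 48.6% of them in Tet2-KI and in 50.7% and 31.1% in Tet2deltaRBD-KI. Tet2-KI replicate 2 and Tet2deltaRBD-KI replicate 1 were close, and the groups overlapped, with means of 66.1 ± 24.8% and 40.9 ± 13.9% (SD, n = 2 each) and a difference of 25.2 percentage points (exact permutation p = 0.667). Under 40% GC (192 regions) the shares were 94.8% and 70.3% in Tet2-KI, and 70.3% and 27.6% in Tet2deltaRBD-KI (exact permutation p = 0.667). At 60% GC and over (156 regions) they were 71.2% and 46.8% in Tet2-KI, and 55.8% and 65.4% in Tet2deltaRBD-KI, a difference of -1.60 percentage points (exact permutation p = 1). Tet2-KI replicate 1 was the highest in every GC class, and Tet2deltaRBD-KI replicate 2 was the lowest in the first 3 classes and the second highest in the last.

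**Figure D5:**
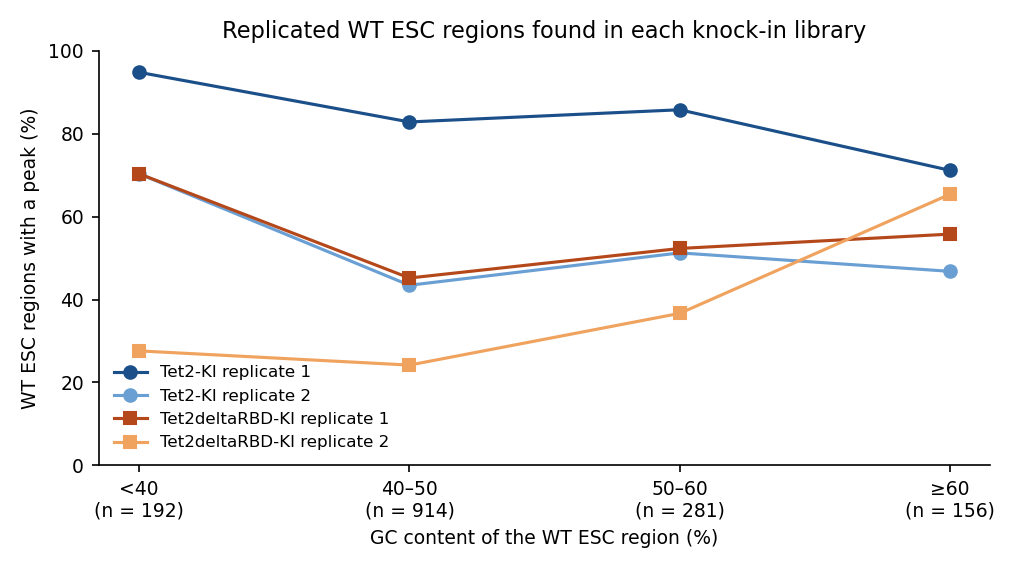
Share in percent (vertical) of the regions replicated in WT ESC that had a peak in each knock-in sample, by GC class (horizontal), with 192 regions under 40% GC and 156 at 60% and over. Tet2deltaRBD-KI replicate 2 goes from 27.6% to 65.4%, and Tet2-KI replicate 1 from 94.8% to 71.2%.

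Named regions are those with peaks in the most WT ESC replicates and the highest lowest fold enrichment there. This favours strong peaks, and the fold enrichment is that of WT ESC, since the knock-in lists have none. The first Tet2-KI-specific region lay in an intron of Akap10, an anchoring protein of protein kinase A (chr11:61701171-61701376, GC 37.8%, with a tandem repeat), with fold enrichments of 18.8, 26.9 and 21.0 in WT ESC (22.2 ± 4.19, SD, n = 3). Rnf20, a ubiquitin ligase of histones, followed with a region 4 bp from a splice site (chr4:49665287-49665617, GC 42.3%) and 12.6, 12.8 and 17.3. Its sequence above runs from an intron into an exon that is rich in A and G. Pnn, a nuclear speckle protein that acts in splicing, had an intronic region 23 bp from a splice site (chr12:60171207-60171412, GC 44.5%) and 10.8, 10.2 and 11.5. Terf1, which binds telomere repeats, had the only region among the first 8 in coding sequence (chr1:15828240-15828494, GC 38.8%), with a mean of 11.2 ± 1.65 (SD, n = 3). Each of these 4 also had a peak in 2 TKO ESC replicates.

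Mbnl2, a splicing regulator, had an intronic region with a tandem repeat (chr14:120787371-120787586, GC 37.3%), with 13.9, 11.8 and 20.5 in WT ESC. Erc1 had an intronic region without a TKO ESC or WT EB peak (chr6:119712868-119713079, GC 45.8%), with 11.0, 18.8 and 13.2. Map3k2, a kinase of the MAP kinase cascade, and Gcnt2, a glycosyltransferase, had an intronic region each, with fold enrichments of 11.1 to 12.2 and 10.2 to 14.7. At 50 to 60% GC Gcnt2 was joined by an intronic region of Eri3, and at 60% and over the first were Dek, a chromatin protein, in coding sequence 557 bp from the gene start (4.71, 7.36 and 6.84), and the 5′ UTR of the protease Adam10 (6.89, 4.66 and 8.83). Both GC-rich regions had lower values in WT ESC than the first 8, which the ranking by lowest fold enrichment favours.

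Tet2deltaRBD-KI-specific regions with a peak in all 3 WT ESC replicates were only 4. Cux2, a homeobox transcription factor, had its region in the first intron (chr5:122380841-122381236, GC 46.8%), with 7.72, 6.07 and 5.24 (6.34 ± 1.26, SD, n = 3) and no TKO ESC or WT EB peak. Rbm45, an RNA-binding protein, had its region in coding sequence 177 bp from the gene start (chr2:76208118-76208334, GC 67.8%), with 5.69, 4.75 and 6.18. 1810013L24Rik had its region in the 5′ UTR (chr16:8830278-8830599, GC 78.0%), with 4.51, 2.89 and 3.69. Aebp2, a cofactor of Polycomb repressive complex 2, had its region in coding sequence (chr6:140572561-140572813, GC 78.5%), with 2.13, 2.65 and 2.99. Its sequence above holds 29 CG in 200 bases.

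Further regions had a peak in 2 WT ESC replicates: an intron of Lnp, which shapes the endoplasmic reticulum (GC 38.0%), an intron of Rbm12 in a span of 3 coding genes, and the 5′ UTR of Ppp1r9b, or spinophilin. Their fold enrichments were between 6.48 and 9.22. By GC class, Cbl, a ubiquitin ligase (GC 34.5%), Camsap2, which binds microtubule minus ends (GC 49.8%), Rere, a corepressor (GC 55.5%), and Cit, the citron kinase (GC 52.3%), were added, all with introns as the site and 3.47 to 6.14 in the replicates with a peak. The Camsap2 and Rere regions held repeats at distances of 42 and 48 nt.

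Common regions had the highest fold enrichments in WT ESC. Ube2v1, a ubiquitin-conjugating enzyme variant, had 24.8, 27.1 and 32.1 in an intron shared with another coding gene (chr2:167440219-167440529, GC 46.6%). Dyrk1a, a kinase, had 24.8, 58.6 and 25.9 (36.4 ± 19.2, SD, n = 3) and Calm2, one of the calmodulin genes, 23.3, 35.5 and 61.3, both in repeats printed above. Nedd4, a ubiquitin ligase, had 34.5, 20.5 and 22.0 in its first intron, 292 bp from the gene start (chr9:72510553-72510761, GC 75.9%). Med13l, of the Mediator kinase module, and Magi1, a scaffold of cell junctions, had intronic regions with 23.0 to 31.0 and 21.6 to 31.4. Dhx8, a helicase of the spliceosome, had an intronic repeat at a distance of 28 nt, with 19.4 to 32.3. By GC class an intron of Rtn3 (17.3, 32.2 and 29.6), the 3′ UTR of Glul, the glutamine synthetase (17.1, 16.5 and 17.8, a span with 3 coding genes), and the 5′ UTR of Fbxw4 (14.4, 18.0 and 18.6) were added.

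Of 22232 coding genes, 5756 (25.9%) had a region in the knock-in samples. Of these, 802 (13.9%) had a Tet2-KI-specific region, 194 (3.37%) a Tet2deltaRBD-KI-specific region and 629 (10.9%) a common region. At least 2 such regions were in 130, 4 and 106 genes. The genes that follow had the most Tet2-KI-specific regions among those with no region that had a peak in both Tet2deltaRBD-KI samples. Their low Tet2deltaRBD-KI counts follow in part from that choice. Top1, the DNA topoisomerase I, had 4 Tet2-KI-specific regions among 14, of which 13 and 8 had a peak in Tet2-KI and 6 and 0 in Tet2deltaRBD-KI. Ranbp17, a nuclear transport receptor with a gene of 302 kb, also had 4, of 11 regions, with 9 and 8 against 2 and 0. Hspd1, the mitochondrial chaperonin, had 3 of 5, with 5 and 4 against 1 and 0, and Ppil4, a cyclophilin-like protein, 3 of 5, all in coding sequence, with 5 and 3 against 1 and 0. Smc4, a condensin subunit, had 3 of 9, with 8 and 4 against 2 and 0. Atp13a3, Ivns1abp and Luzp1 had 3 each. In these 8 genes Tet2deltaRBD-KI replicate 2 had no peak in any region, which the choice of genes favours.

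Nsd1, a histone methyltransferase, had the most Tet2deltaRBD-KI-specific regions, 3 of 9, and its regions had a peak in 2 and 2 cases in Tet2-KI and in 5 and 4 in Tet2deltaRBD-KI. The first lay in the first intron (chr13:55312496-55312891), as did the second (chr13:55313440-55313647), and the third in coding sequence 67837 bp from the gene start (chr13:55378880-55379096). Msl1, of the MSL histone acetyltransferase complex, had 2 of 3, with 0 and 1 against 2 and 2. Both genes were taken from those with no region that had a peak in both Tet2-KI samples, so these counts follow in part from the choice. In 17 genes regions of both specific classes stood side by side. There the 18 Tet2-KI-specific regions had a median GC content of 47.9% and a median distance from the gene start of 26517 bp, and the 18 Tet2deltaRBD-KI-specific regions 72.7% and 1084 bp. In Arid1a, a subunit of the BAF remodelling complex, the Tet2-KI-specific region was in coding sequence 74987 bp from the start (GC 47.8%), and the Tet2deltaRBD-KI-specific region in coding sequence at 3963 bp (GC 76.3%). In Hnrnpa2b1, a splicing factor, they were in the 3′ UTR (GC 34.3%) and in the first intron 497 bp from the start (GC 71.3%), and in Msh6, of mismatch repair, in an intron (GC 45.5%) and in coding sequence 217 bp from the start (GC 71.8%). Odz4, Camsap2 and Tpd52 were exceptions, with Tet2deltaRBD-KI-specific regions of 44.5 to 49.8% GC.

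Gene lists for ESCs and RNA biology were read as counts beside the shares over all coding genes with a region (13.9%, 3.37% and 10.9%). The hnRNP family holds RNA-binding proteins that act in splicing. Of its 22 genes with a region, 9 (40.9%) had a Tet2-KI-specific region, 2 (9.09%) a Tet2deltaRBD-KI-specific region and 8 (36.4%) a common region. Hnrnpf had 3 Tet2-KI-specific regions, and Hnrnpa1, Hnrnpab, Hnrnph1 and Hnrnpm 2 each. Each share was above that over all coding genes with a region, and the number of regions in a gene was not taken into account. With 1 sample left out, 9 to 17 genes of the family had a Tet2-KI-specific region, while over all coding genes the number went from 897 to 3310. A Tet2deltaRBD-KI-specific region was then in 2 to 8 genes of the family, the most without Tet2deltaRBD-KI replicate 1. Of 15 genes of the Paf1 complex and elongation factors, 4 (26.7%) had a Tet2-KI-specific region, and they were Cdc73, Supt16h, Supt5h and Supt6h. Supt16h, of the histone chaperone FACT, had 3 of them, 2 in coding sequence. In the p53 and DNA damage list 5 of 21 genes had one (Blm, Nbn, Parp1, Prkdc and Xrcc5), and in the cohesin and chromosome structure list 4 of 17. Of 28 helicases of the DEAD and DEAH families 5 had a Tet2-KI-specific, none a Tet2deltaRBD-KI-specific and 10 (35.7%) a common region. These counts moved with the samples used as well. With 1 sample left out, a Tet2-KI-specific region was in 4 to 11 genes of the Paf1 list, 5 to 15 of the p53 list, 4 to 16 of the cohesin list and 9 to 18 helicases, in each case with the most when Tet2-KI replicate 2 was left out. Up to 3 helicases then had a Tet2deltaRBD-KI-specific region, the most without Tet2deltaRBD-KI replicate 1.

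Of 14 core pluripotency factors with a region, none had a Tet2-KI-specific region, Klf5 had a Tet2deltaRBD-KI-specific region in its 5′ UTR, and Tcfcp2l1 had a common region. These counts are not shown to differ from the shares over all coding genes, and they moved with the samples used: 8 of the factors had a Tet2-KI-specific region without Tet2-KI replicate 2, and 6 a Tet2deltaRBD-KI-specific region without Tet2deltaRBD-KI replicate 1. For Polycomb repressive complex 2, which methylates histones, 2 of 8 genes had a Tet2deltaRBD-KI-specific region, Aebp2 and Jarid2, and of 24 histone methyltransferase genes 2 did, Ash2l and Nsd1. Tet2-KI-specific regions were in 1 of those 8 and in 3 of those 24 genes (Ash1l, Rbbp5 and Setd3). Of 43 ribosomal protein genes with a region, 3 (6.98%) had a Tet2deltaRBD-KI-specific region, all within 500 bp of the gene start, and 3 a Tet2-KI-specific region. Over the 25 lists, 17 Tet2deltaRBD-KI-specific regions fell in 15 genes. Of these 16 had a GC content of 60% or more and 7 lay within 500 bp of the start. The lists held 87 Tet2-KI-specific regions in 71 genes, of which 7 had a GC content of 60% or more and 4 lay within 500 bp of the start. With 1 sample left out, the genes with a Tet2deltaRBD-KI-specific region were 2 to 4 for Polycomb repressive complex 2, 2 to 8 for histone methyltransferases and 3 to 12 for ribosomal proteins, the last without Tet2deltaRBD-KI replicate 1. Those with a Tet2-KI-specific region were 2 to 5, 5 to 14 and 4 to 14. With so few genes a list, and counts that depend on single samples, these shares are descriptions.

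Among the Tet genes, Tet2 had 5 regions, with 3 and 4 peaks in Tet2-KI and 2 and 1 in Tet2deltaRBD-KI. Of these, 2 were Tet2-KI-specific. The first was in coding exon 9 of 10 (chr3:133132325-133132530, GC 52.0%) and the second in the first intron (chr3:133189507-133189718, GC 39.5%). Neither had a peak in WT ESC. Whether the first overlaps the deleted stretch is not given in the sources used here, so it checks nothing about the deletion. Tet1 had a common intronic region (chr10:62319653-62319887) with a peak in all WT ESC and all TKO ESC replicates, and Tet3 had 1 region, in Tet2deltaRBD-KI replicate 2 only.

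A further list held transcripts that the study named, chosen there on samples of this series, so their direction is no independent evidence. Jarid2 had 12 regions, with 8 and 4 peaks in Tet2-KI and 6 and 6 in Tet2deltaRBD-KI. Its Tet2deltaRBD-KI-specific region lay in the first intron 4612 bp from the start (GC 64.5%), its Tet2-KI-specific region in the same intron at 29454 bp (GC 50.8%), and 2 regions were common. Sfpq, a paraspeckle and splicing protein, had 8 regions, 3 of them common, with 7 and 5 peaks in Tet2-KI and 6 and 7 in Tet2deltaRBD-KI. Smarcc1, a BAF core subunit, had 7, with a Tet2-KI-specific region in coding sequence and a common one in an intron. Paf1 and Mdc1 each had a common region in coding sequence, Cdh4 had one in an intron, Dab1 had a Tet2-KI-specific intronic region, and Eed and Mbd3 had no region in the 3 classes.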

How the data were processed

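Members and gene lists were chosen with earlier results of these data known. Reads of low complexity and reads from rRNA or tRNA were taken out by the authors, who aligned the rest with STAR to mm9, guided by RefSeq transcripts. MACS2 was run on each immunoprecipitated sample with its input as control, so replicates were not pooled. The deposited lists give positions of 200 bp intervals (unit: other, no measured value), and for WT ESC, TKO ESC and WT EB also a ratio, the fold enrichment over input at the summit that the authors' peak caller wrote. No depths, read counts or input files were used.

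Intervals were merged at 1 bp of overlap. Summits were placed in GENCODE M1 genes on NCBIM37, the assembly behind mm9, as coding sequence, UTR, intron, noncoding gene or intergenic. Annotation and lists matched by symbol, and 36 regions off the reference have no GC content. GC classes had limits of 40%, 50% and 60%. GC-weighted exonic shares used the GC classes of all 4 samples pooled. Sequence was read on the gene's strand. Samples were grouped by the labels and compared by exact two-sided permutation tests over 6 relabellings, and shares of regions carry 95% Clopper-Pearson intervals, which cover counting error only.

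Named regions were the 8 of each class, and 2 of each GC class, with peaks in most WT ESC replicates and then the highest lowest fold enrichment. Named genes were the 8 with most regions of a class, plus list members, and a few of them are not reported here. Alternatives were 100 bp of overlap, 5 equal GC classes, any exon overlap, fold enrichment or replicate cuts for WT ESC peaks, chromosomes 1 to 19 and X, a replicate block and leaving out each sample. Same-numbered samples showed no shared deviation (r = 0.003 over 15341 regions), and any pair of samples shared at most 1.18% of identical intervals, so no sample was a duplicate. The code was tested on simulated data. Python 3.11.15, pandas 2.3.3, numpy 2.4.6, scipy 1.17.1, pysam 0.24.0, matplotlib 3.10.9 and samtools 1.23.1 were used.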

Additional observations from a re-analysis of the deposited data

How the results depend on the processing

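Of 120 alternatives over 15 results, 36 moved, 4 reversed and 80 did neither. Of the 4 differences between the groups only the direction was judged, so a kept direction can go with another size (below). Counts of regions were held to a factor of 1.5 and shares to their 95% interval. No test could pass 0.05 with 2 samples a group, so none gained or lost a call, and depth is unknown. Without weighting by GC content, the exonic difference between the groups was -9.88 in place of 0.945 percentage points. It was also below 0 when Tet2-KI replicate 1 (-0.413) or Tet2deltaRBD-KI replicate 1 (-0.884) was left out, as was the difference in tandem-repeat share without Tet2-KI replicate 1 (-0.952). Counting any exon overlap as exonic gave 43.9%, 71.4% and 47.6% for Tet2-KI-specific, Tet2deltaRBD-KI-specific and common regions. Counting only WT ESC peaks at or above the median fold enrichment gave 35.1%, 10.1% and 65.0% with a WT ESC peak, and asking for all 3 replicates 8.24%, 1.84% and 45.7%, in the same order as before.

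Leaving out each sample in turn gave 1221 to 6990 Tet2-KI-specific, 366 to 1592 Tet2deltaRBD-KI-specific and 1000 to 1808 common regions, which follows from asking for fewer samples. The share of Tet2-KI regions without a Tet2deltaRBD-KI peak was 44.7 to 84.5% under 40% GC and 31.3 to 51.4% at 60% and over. Exonic shares were 27.2 to 31.4%, 32.4 to 62.8% and 34.6 to 38.9%, shares with a WT ESC peak 27.6 to 61.2%, 14.8 to 40.1% and 75.9 to 78.9%, for the 3 classes in that order. The 27.6% and 40.1% both belong to leaving out Tet2-KI replicate 1, which reversed the order of the first and second class. The difference in mean GC content was -12.2 to -2.50 percentage points, in log2 peak number 0.56 to 1.40, in weighted exonic share -0.884 to 3.22 and in tandem-repeat share -0.952 to 8.54. The same-numbered samples share only a number, as far as the labels say. With a replicate block the mean differences are the same (0.98 for log2 peak number, -7.33 for mean GC content, 0.945 for weighted exonic share and 3.79 for tandem-repeat share). Its sign-flip test cannot go below 0.5, and the exact p was 0.5 for peak number, mean GC content and tandem-repeat share and 1 for the weighted exonic share. It changed no call.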

Other observations

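Noncoding transcripts, named here after their values were seen, also carried regions of the classes. Of 168 regions in lincRNA genes, 15 were Tet2-KI-specific (8.93%), 1 Tet2deltaRBD-KI-specific (0.595%) and 14 common (8.33%), beside 7.04%, 1.41% and 5.63% of all regions. These shares are near those of all regions. Malat1, an abundant nuclear RNA, had 4 common regions. Neat1, the scaffold RNA of paraspeckles, had 1 common and 1 Tet2-KI-specific region. Meg3, an imprinted RNA, had 2 common and 1 Tet2-KI-specific region, and Pvt1 had 1 and 2. Gas5, a host of small nucleolar RNAs, had 1 Tet2-KI-specific region. Tsix, the antisense RNA of Xist, had 3 common regions. Sox2ot, a transcript that spans Sox2, held the only lincRNA region that was Tet2deltaRBD-KI-specific. Of 77 regions in pseudogenes, 10 were Tet2-KI-specific, 1 Tet2deltaRBD-KI-specific and 4 common (12.99%, 1.30% and 5.19%). The Tet2-KI-specific share there was above that of all regions, but it rests on 10 regions and was not tested. Reads in pseudogenes can come from the parent gene. The strand of the peaks is not in the lists, so overlapping genes cannot be told apart.

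On the mitochondrial chromosome, Tet2-KI had 22 and 2 peaks and Tet2deltaRBD-KI 6 and 2, over 17 regions, of which none was Tet2-KI-specific and 1 was common. Tandem repeats of AG on the transcript strand made up 24.6% and 21.8% of the tandem-repeat peaks in coding genes in Tet2-KI and 23.2% and 14.6% in Tet2deltaRBD-KI. Those of CT made up 13.3% and 8.81% in Tet2-KI and 6.87% and 0% in Tet2deltaRBD-KI, where replicate 2 had 0 of 96 peaks, which allows a share of up to 3.13%. Of the marker lists, 4 of 6 stem cell markers, 4 of 6 primitive endoderm markers and 1 of 6 feeder fibroblast markers had a region in the knock-in samples. None of these had one in the 3 classes, but this depended on single samples. Without Tet2-KI replicate 2, 4 stem cell markers had a Tet2-KI-specific region. Without Tet2deltaRBD-KI replicate 1, 2 primitive endoderm markers had a Tet2deltaRBD-KI-specific region. Of 23 core pluripotency factors 14 had a region in the knock-in samples. A peak is not a level, so a marker without a region is not shown to be absent.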
